A study of Sus scrofa with 4 samples.

Results

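The genes of fatty acid synthesis and desaturation described here are ACLY, ME1, ACACA, FASN, ELOVL1, SCD and FADS2, 7 of the 22658 features in the files. They were taken as a pathway list by name and identifier, with earlier results of these data known. No threshold was set here on a measured value, but the identifier of ELOVL1 came from the study's tables. Those tables list genes selected by their course or change over these ages. RNA-seq had been carried out on the longissimus dorsi (LD) muscle of 12 castrated male Laiwu pigs of wild type genotype, an indigenous breed of North China known for fatty meat. The pigs were kept alike and sampled at 60, 120, 240 or 400 d of age, with 3 pigs and 3 libraries at each age and 1 library per pig. No treatment was given, so age is the only factor named in the labels, and each pig was sampled at a single age. Anything else that differed between the groups of pigs or their libraries cannot be told apart from age. Libraries are named below by their labelled age and a number that only tells them apart, such as 60 d 2.

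Fatty acids are built in the cytosol from acetyl units. ACLY (ATP citrate lyase) releases acetyl-CoA from citrate, ME1 (malic enzyme) supplies NADPH, ACACA (acetyl-CoA carboxylase alpha) makes malonyl-CoA, and FASN (fatty acid synthase) joins the units into palmitate. ELOVL1 lengthens saturated and monounsaturated chains, SCD (stearoyl-CoA desaturase) makes oleate from stearate, and FADS2 catalyses the first desaturation of the essential polyunsaturated fatty acids. In pigs most of this synthesis takes place in fat cells, and muscle holds such cells between its fibres, so a muscle library carries the transcripts of both.

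The labels and the study's own expression tables give different ages to the same libraries. The tables give 60 d to the values of the group labelled 400 d, 120 d to that labelled 240 d, 240 d to that labelled 60 d and 400 d to that labelled 120 d, with a median absolute log2 difference of at most 0.02 for each match and of at least 0.495 for every other pairing. Which names are right was not settled here, and the labelled ages are used throughout. The 12 libraries fall into the same 4 groups under either naming, so each of the 6 pairs of ages is the same test, but its direction in time is not: the step from 60 to 400 d described here runs from 240 to 60 d in the tables of the study.

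Total counts per library were 9713813 to 13325327. A level is given in FPKM (a count of fragments divided by transcript length and by library size), and a change is a log2 ratio fitted to the counts. Library 400 d 2 had the lowest level of 18 of the 25 measured marker genes of fat, blood, vessel and connective tissue cells. Of 13 muscle fibre markers 3 had a feature, of which DES (desmin) and TNNC2 (fast troponin C) were high in all 12 libraries, DES at 2000 to 4558 FPKM, and ACTA1 (skeletal actin) was listed at 0 in 7 libraries, which can be a failed estimate. Pairs of libraries of the same age had a Pearson's r of 0.921 to 0.969 across 13314 features, where features are not independent replicates.

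In the any-age test, which asks for a difference between any of the 4 ages, 5 of the 7 genes passed an adjusted p of 0.05 (edgeR quasi-likelihood test, Benjamini-Hochberg over 13314 features). The background was 19.8% of all features tested. The call of ELOVL1 is not independent of the selection behind the tables that gave its identifier. ELOVL1 had the lowest adjusted p, 0.00727, followed by ME1 at 0.0217, ACLY at 0.0218, FADS2 at 0.0291 and FASN at 0.0457. ACACA at 0.0851 and SCD at 0.341 did not pass. A second feature named FASN, described below and not among the 7, did not pass either (adjusted p = 0.205). When each library was left out in turn, ELOVL1 passed in 12 of 12 fits, ME1 in 11 (not without 400 d 1), ACLY in 9 (not without 60 d 2, 60 d 3 or 400 d 2), FADS2 in 5 and FASN in 2 (without 60 d 1 or 120 d 3). ELOVL1, ACLY, FADS2 and FASN had their highest mean level in the libraries labelled 60 d, and ME1 in those labelled 400 d. RNA from fewer cells of a type and less RNA per cell cannot be told apart in such bulk samples.

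**Figure D1:**
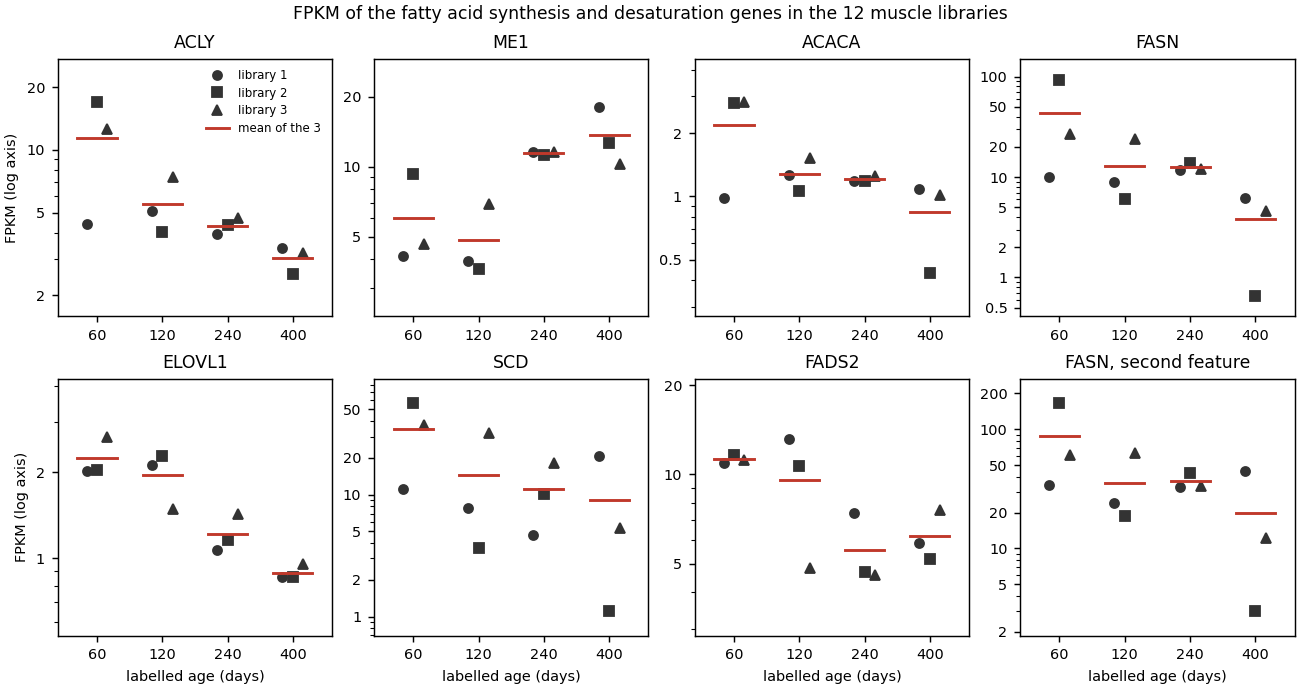
FPKM on a log axis for each of the 12 libraries (points, by library number within an age) and the mean of the 3 libraries of an age (line), for the 7 genes and for the second feature named FASN. ME1 is higher in every library labelled 240 or 400 d than in any labelled 60 or 120 d, ELOVL1 falls in tight groups, and FASN and SCD spread over a wide range among libraries of the same age.

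The gene of the first step, ACLY (ENSSSCG00000017421, Sscrofa10.2 chromosome 12, 21082917 to 21106780, plus strand), was at 4.39, 17.1 and 12.6 FPKM in the 3 libraries labelled 60 d. It was at 5.07, 4.04 and 7.40 at 120 d, at 3.95, 4.35 and 4.70 at 240 d, and at 3.37, 2.54 and 3.21 at 400 d. Libraries 60 d 2 and 60 d 3 stood above the rest, whereas 60 d 1 lay among the older libraries, and all 3 libraries of 400 d lay below all others. ACLY was lower at 400 than at 60 d by 3.69-fold (log2 change -1.88 ± 0.40 SE, adjusted p = 0.00786) and lower at 240 than at 60 d (log2 change -1.38 ± 0.39, adjusted p = 0.0434). The first call held without any single library, but not without 60 d 2 and 400 d 2 together (adjusted p = 0.0816). The second was lost when any 1 of 9 libraries was left out, all but 60 d 1, 120 d 2 and 120 d 3, and without 60 d 2 the change was smaller (-0.96, adjusted p = 0.126).

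ME1 (ENSSSCG00000004454, chromosome 1, 93050990 to 93243045, plus strand) took the opposite course. Its levels were 4.15, 9.29 and 4.67 FPKM at 60 d, 3.92, 3.64 and 6.94 at 120 d, 11.5, 11.2 and 11.6 at 240 d, and 18.2, 12.6 and 10.3 at 400 d. Every library of the later 2 ages was above every library of the earlier 2, and the 3 libraries of 240 d were nearly alike, with a mean of 11.4 ± 0.221 (SD, n = 3). ME1 rose 2.24-fold between 60 and 400 d (log2 change 1.16 ± 0.34, adjusted p = 0.0282) and 2.82-fold between 120 and 400 d (1.49 ± 0.34, adjusted p = 0.0186). Between 120 and 240 d the change was 1.23 ± 0.34 with an adjusted p of 0.0546, and it passed with DESeq2 (adjusted p = 0.0111). The rise from 60 d was lost without 60 d 1, 60 d 3, 400 d 1 or 400 d 2, with adjusted p of 0.0640 to 0.0985, and that from 120 d without 120 d 1, 120 d 2, 400 d 1 or 400 d 2.

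ACACA (ENSSSCG00000017694, chromosome 12, 40197028 to 40367985, minus strand), the carboxylase that commits acetyl-CoA to synthesis, was a low transcript, with 55 to 425 counts per library. Its levels were 0.980, 2.77 and 2.80 FPKM at 60 d and 1.27, 1.07 and 1.52 at 120 d. At 240 d they were 1.19, 1.18 and 1.25, and at 400 d 1.09, 0.432 and 1.01. The libraries 60 d 2 and 60 d 3 were high, 400 d 2 was low, and the other 9 lay between 0.980 and 1.52. A fall was called only between 60 and 400 d (log2 change -1.36 ± 0.39, adjusted p = 0.0279), where the groups overlapped because 60 d 1 was below 2 libraries of 400 d. That call was lost without 60 d 2, 60 d 3, 400 d 2 or 400 d 3, with adjusted p of 0.0503 to 0.0941.

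FASN (ENSSSCG00000029944, chromosome 12, 1023477 to 1034681, minus strand) had the widest range of the 7 genes, from 0.656 FPKM in 400 d 2 to 93.7 in 60 d 2, a ratio of 143. The 3 libraries gave 9.95, 93.7 and 27.2 FPKM at 60 d, 8.93, 6.05 and 23.8 at 120 d, 11.8, 14.0 and 12.0 at 240 d, and 6.24, 0.656 and 4.54 at 400 d. All libraries of 400 d lay below those of 60 and 240 d. FASN fell 11.3-fold between 60 and 400 d (log2 change -3.50 ± 0.87, adjusted p = 0.0157). None of the other 5 pairs of ages was called, although the changes from 60 to 120 d, from 240 to 400 d and from 120 to 400 d were each close to that from 60 to 240 d, -1.79 ± 0.81. Without 60 d 2 the fall was -2.27 (adjusted p = 0.0543), and without 60 d 2 and 400 d 2 together it was -1.78 (adjusted p = 0.0893).

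The study's tables also name a second, nearby feature FASN, ENSSSCG00000023044 at chromosome 12, 1048559 to 1052166 on the same strand. It was at 33.8, 167 and 60.4 FPKM at 60 d, 24.2, 18.7 and 63.2 at 120 d, 33.0, 43.2 and 33.2 at 240 d, and 44.5, 2.95 and 12.2 at 400 d. The levels of both features moved closely together (Pearson's r = 0.964 over 12 libraries and 0.942 within ages). The ratio of the second to the first was 1.78 to 4.50 in 11 libraries and 7.14 in 400 d 1. The second feature was not called between 60 and 400 d (log2 change -2.12 ± 0.82, adjusted p = 0.0788), but was without 400 d 1 (-3.52, adjusted p = 0.0199). In the any-age test the second feature was not called either (adjusted p = 0.205). Its mean level over the 12 libraries was 44.7 FPKM, against 18.2 for the first. The any-age call and the call between 60 and 400 d thus hold for the first feature and not for the second. Whether both belong to 1 gene was not tested.

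ELOVL1 (ENSSSCG00000023937, chromosome 6, 155338047 to 155345129, plus strand), an elongase of long saturated chains, was low but the most even of the 7 genes. It was at 2.02, 2.03 and 2.65 FPKM at 60 d, 2.12, 2.28 and 1.49 at 120 d, 1.07, 1.15 and 1.42 at 240 d, and 0.857, 0.857 and 0.953 at 400 d. No library of 240 or 400 d reached the level of any library of 60 or 120 d. Age accounted for 88.7% of its variance in log2 CPM (log2 of counts scaled to library size), a larger share than in 97.7% of the features tested. ELOVL1 fell between 60 and 400 d (log2 change -1.31 ± 0.22, adjusted p = 0.00291), between 60 and 240 d (-0.87 ± 0.21, adjusted p = 0.0267) and between 120 and 400 d (-1.11 ± 0.22, adjusted p = 0.0123). The first call held without any single library. The fall between 60 and 240 d was lost without 60 d 3 or any library of 240 d, and that between 120 and 400 d without 400 d 2 (adjusted p = 0.0555).

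SCD (ENSSSCG00000010554, chromosome 14, 120964206 to 120980916, plus strand) was not called in any pair of ages. Its levels were 11.2, 56.1 and 37.0 FPKM at 60 d, 7.84, 3.68 and 32.0 at 120 d, 4.71, 10.1 and 18.3 at 240 d, and 20.8, 1.11 and 5.32 at 400 d. The means fell from 34.8 ± 22.5 at 60 d to 9.09 ± 10.4 at 400 d (SD, n = 3), but every age overlapped every other. The spread of SCD among libraries of the same age, an SD of 1.56 in log2 CPM, was larger than that of 99.3% of the features tested. FASN followed with an SD of 1.29, larger than in 98.3%. The change of SCD from 60 to 400 d was -1.93 ± 1.005 (adjusted p = 0.177), and none of the 12 fits without a library called it.

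FADS2 (ENSSSCG00000013072, chromosome 2, 9119389 to 9153703, plus strand) was at 10.9, 11.6 and 11.2 FPKM at 60 d and at 13.2, 10.6 and 4.84 at 120 d. It was at 7.42, 4.67 and 4.57 at 240 d and at 5.86, 5.2 and 7.58 at 400 d. The libraries of 60 d were above all those of 240 and 400 d, and 120 d 3 was as low as the older libraries. Those of 60 d were alike in FPKM, but less so in log2 CPM, at 4.95, 4.93 and 4.42. FADS2 fell 2.20-fold between 60 and 240 d (log2 change -1.14 ± 0.28, adjusted p = 0.0280) and 1.94-fold between 60 and 400 d (-0.96 ± 0.28, adjusted p = 0.0296). Both calls were lost without 60 d 1 or 60 d 2, the first also without 240 d 2 or 240 d 3, the second also without 400 d 1 or 400 d 2, with adjusted p of 0.0552 to 0.112. With limma on log2(FPKM + 1) or log2(FPKM + 0.1) neither passed (adjusted p of 0.0675 to 0.0844), nor did the any-age test of FADS2 (0.112).

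Over the 6 pairs of ages, 11 of the 42 changes of the 7 genes were called. Between 60 and 400 d, 5 genes were lower (ACLY, ACACA, FASN, ELOVL1 and FADS2) and ME1 was higher, where 23.5% of all features were called, 12.7% lower and 10.8% higher. The median log2 change of the 7 genes was -1.36, against -0.07 over all features. Between 60 and 240 d, ACLY, ELOVL1 and FADS2 were lower, against a background of 11.3% called and 5.83% called lower. The background of higher calls in this pair was 5.51%. Between 120 and 400 d, ELOVL1 was lower and ME1 higher, against 13.9% called, 8.32% lower and 5.55% higher. Under a stricter rule, an adjusted p of 0.01 with a log2 change of at least 1, only ACLY and ELOVL1 between 60 and 400 d were left, where 6.26% of features were called, and only ELOVL1 in the any-age test, where 3.6% were.

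With edgeR none of the 7 genes was called between 120 and 240 d, where 5.12% of features were, 2.91% lower and 2.21% higher, nor in the steps from 60 to 120 d and from 240 to 400 d. In these last 2 steps edgeR called 0% of features, although 1384 and 1176 features had an unadjusted p under 0.05. Between 120 and 240 d, DESeq2 called ME1 higher (adjusted p = 0.0111) and FADS2 and ELOVL1 lower (adjusted p = 0.0301 and 0.0389). The fitted changes of the 7 genes from 60 to 120 d had a median of -0.78 against -0.01 over all features, with adjusted p of 0.415 to 0.802, and that of ME1 went from -0.33 to 0.13 without 60 d 2.

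Separation of the groups in FPKM needs no model, and 3 against 3 libraries that do not overlap give a two-sided exact permutation p of 0.1, the smallest possible. At 400 d, ACLY, FASN, ELOVL1 and FADS2 were below and ME1 above every library of 60 d, where 39% of all features did not overlap, 20.9% lower and 18.1% higher. At 240 d, ELOVL1 and FADS2 were below and ME1 above all of 60 d, with 31.6% of features not overlapping, 17.2% lower and 14.4% higher. At 400 d, ACLY and ELOVL1 were below and ME1 above all of 120 d, with 40.2% of features not overlapping, 21.6% lower and 18.6% higher. ELOVL1 was separated by age in every pair but 60 and 120 d.

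Between 120 and 240 d, ELOVL1 was lower and ME1 higher with no overlap, where 34.7% of features were so separated, 18% lower and 16.7% higher. From 240 to 400 d, ACLY, ACACA, FASN and ELOVL1 were lower without overlap, against 17.8% of features, 9.13% lower and 8.66% higher. Between 60 and 120 d none of the 7 genes was separated, against 11.7% of features, 5.6% lower and 6.14% higher. SCD overlapped in all 6 pairs.

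**Figure D2:**
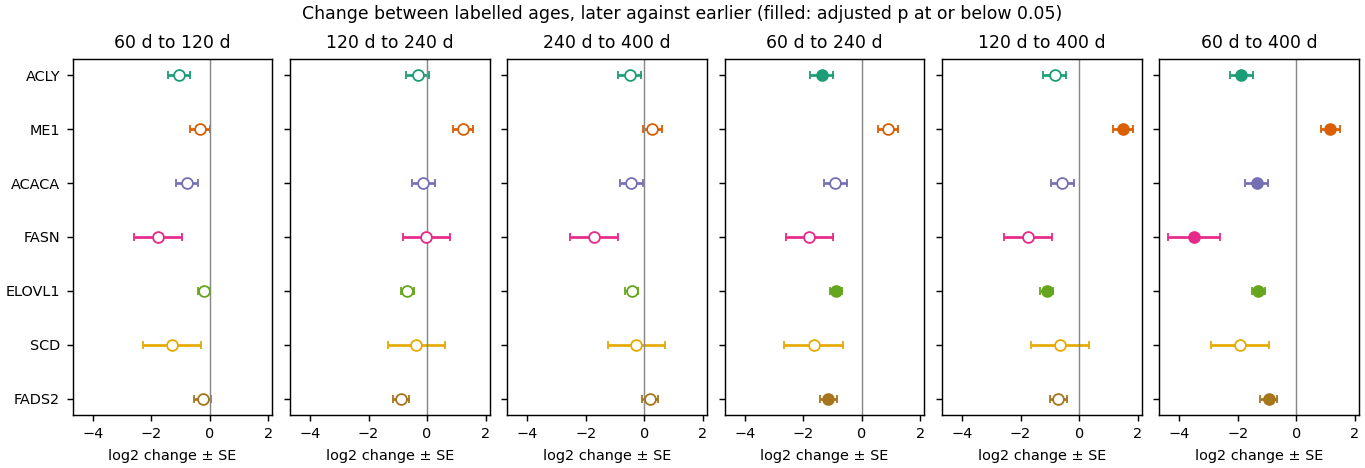
Log2 change of each of the 7 genes for the 6 pairs of labelled ages, later against earlier (points, edgeR), with its standard error (bars). Filled points passed an adjusted p of 0.05. Only ME1 lies to the right of 0 by more than its error, and the bars of SCD and FASN are the widest.

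Because the 7 genes act in 1 pathway, the next comparison asked how closely they moved together. Over the 12 libraries, the 21 pairs of genes had a median Pearson's r of 0.46 in log2 CPM, with a range of -0.86 to 0.93, and 11 pairs passed an adjusted p of 0.05 (permutation test, two-sided, 100000 resamples, Benjamini-Hochberg over the 21 pairs). Spearman's rho passed in 9. The 6 pairs among FASN, SCD, ACACA and ACLY had an r of 0.81 to 0.93. These 4 genes are grouped here because of these values, so the group itself was not tested. By comparison, FASN reached an r of 0.8 or more with 1.04% of the 13313 other features tested, and its median r with all of them was 0.03.

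The closest pair was ACACA and ACLY (r = 0.928, rho = 0.888, adjusted permutation p = 0.00026 and 0.00305). It remained close without the libraries 60 d 3 and 400 d 2, the farthest from the median of ACACA (r = 0.973). FASN and ACACA were as close (r = 0.928, rho = 0.853, adjusted permutation p = 0.00026 and 0.0042), and r fell to 0.768 without 60 d 2 and 400 d 2. FASN and SCD had an r of 0.878 and a rho of 0.804 (adjusted permutation p = 0.00084 and 0.00882), and an r of 0.698 without the same pair of libraries. With both of them left out, a choice made after seeing the data, the 6 pairs ranged from 0.687 to 0.955.

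ME1 had a negative r with each of the other 6 genes over all libraries. The lowest was with ELOVL1 (r = -0.860, rho = -0.867, adjusted permutation p = 0.00267 and 0.00399), and it was -0.830 without 120 d 1 and 120 d 2. ME1 and FADS2 had an r of -0.730 (rho = -0.755, adjusted permutation p = 0.0224 and 0.0163). FADS2 and ELOVL1 were positively related (r = 0.757, rho = 0.657, adjusted permutation p = 0.0181 and 0.0509). All 3 genes differed between ages in the any-age test, so the age groups enter these coefficients.

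Removing the mean of each age changed the picture for ME1, FADS2 and ELOVL1 but not for the other 4 genes. Within ages, the 6 pairs among FASN, SCD, ACACA and ACLY kept an r of 0.72 to 0.89, and all 6 passed an adjusted p of 0.05 in an exact permutation test over the 1296 orders of the libraries within ages. Their adjusted p was 0.00972 for 5 pairs and 0.0297 for FASN with ACACA. No other pair of the 21 passed. ME1 and FASN, at -0.19 over all libraries, were at 0.72 within ages (adjusted exact permutation p = 0.243), and ME1 with ACLY moved from -0.29 to 0.71 (adjusted p = 0.33 in the same test). The median over all 21 pairs was 0.23 within ages.

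ELOVL1 and FADS2, whose age means fell, showed the reverse. Their 8 pairs with FASN, SCD, ACACA and ACLY all had a positive r over all libraries, with a median of 0.45, whereas only 1 of the 8 was positive within ages, with a median of -0.12. Over all libraries ELOVL1 passed with ACLY (r = 0.677, rho = 0.741, adjusted permutation p = 0.0229 and 0.0178). With ACACA it passed for r alone (r = 0.636, adjusted permutation p = 0.0361). ELOVL1 and FADS2 themselves went from 0.757 to 0.234. Without 60 d 2 and 400 d 2, the 8 pairs had a median within ages of -0.48, with a lowest value of -0.81.

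**Figure D3:**
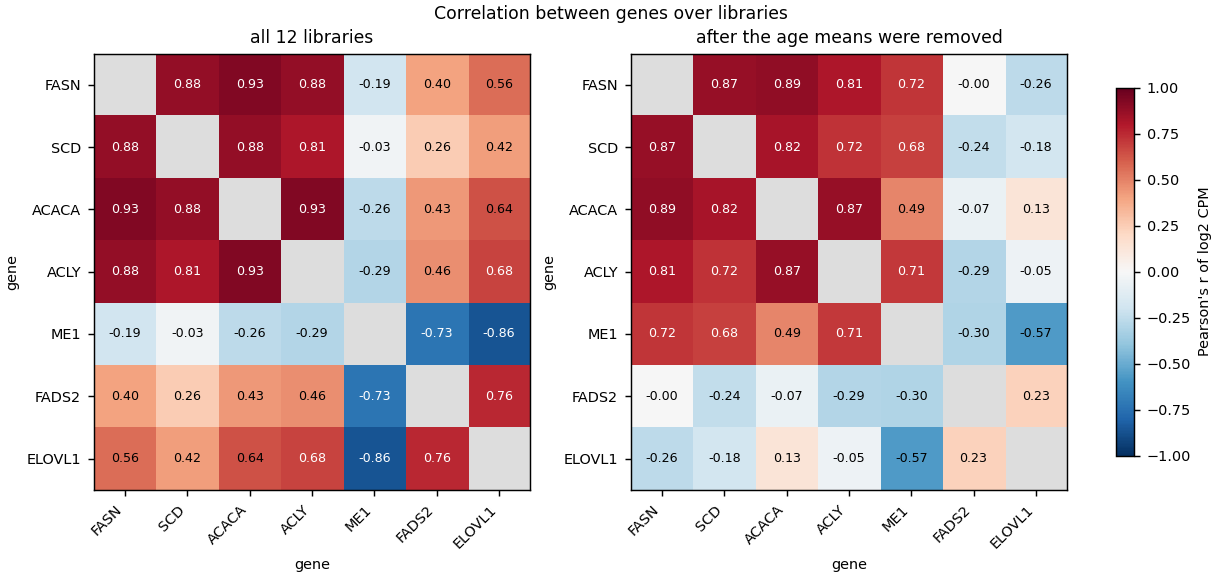
Pearson's r of log2 CPM for each pair of the 7 genes over the 12 libraries (left) and after the mean of each age was removed (right), from blue at -1 to red at 1. The block of FASN, SCD, ACACA and ACLY is red on both sides, at 0.81 to 0.93 and 0.72 to 0.89, while the row of ME1 turns from blue to red for these 4 genes.

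The libraries behind the values within ages can be named. Library 60 d 1 was below the mean of its age in all of FASN, SCD, ACACA and ACLY, by 0.99 to 1.56 on the log2 CPM scale, and 60 d 2 was above it in all 4, by 0.49 to 1.67. At 120 d, library 120 d 3 was above the mean in all 4 genes, by 0.25 to 1.75, and the other libraries were below it. At 400 d, 400 d 2 was below in all 4, by 0.27 to 2.19, and 400 d 1 and 400 d 3 were above. At 240 d the deviations of FASN, ACACA and ACLY were small, at most 0.15, while SCD ran from -1.03 in 240 d 1 to 0.94 in 240 d 3. The order of the libraries was the same in all 4 ages for SCD and ACLY. In 120 d 3, where the 4 genes and ME1 were highest of their age, FADS2 and ELOVL1 were lowest of theirs.

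**Figure D4:**
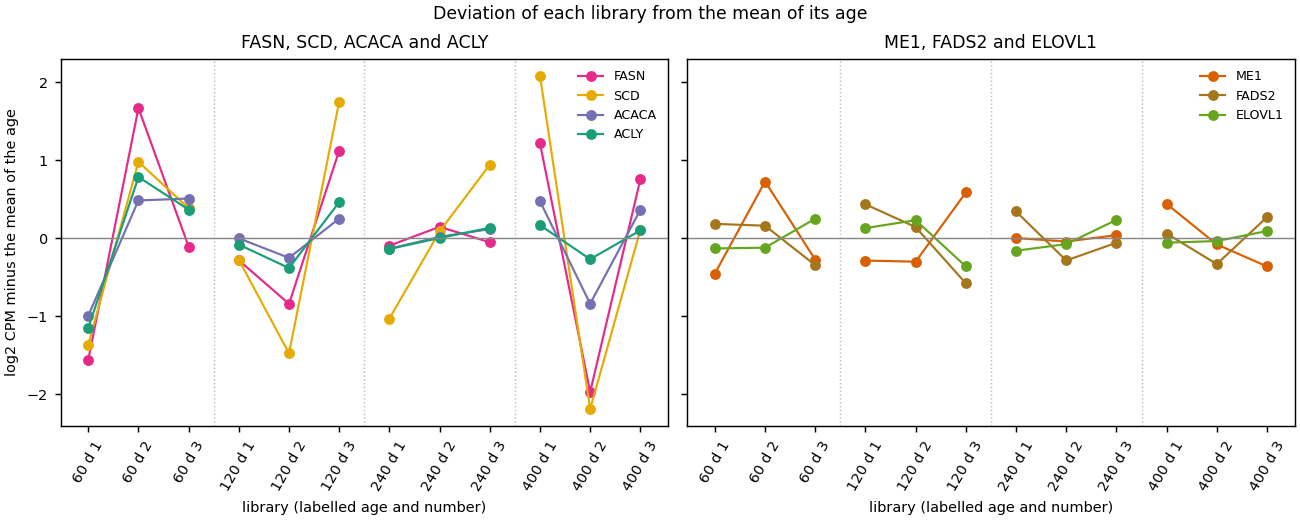
Log2 CPM of each gene minus the mean of the 3 libraries of its age, by library, for FASN, SCD, ACACA and ACLY (left) and for ME1, FADS2 and ELOVL1 (right). On the left the lines mostly rise and fall together, though not at 240 d, where SCD rises from library to library and FASN does not. SCD runs from 2.09 above to 2.19 below the age mean, and on the right the deviations stay between -0.58 and 0.73.

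Between ages, 4 means per gene are too few for a correlation, and their order is given instead. ACLY, ACACA, FASN, SCD and ELOVL1 all had their mean FPKM in the order 60, 120, 240 and 400 d from high to low. In log2 CPM, FASN and SCD were instead higher at 240 than at 120 d (means of 5.97 against 5.75, and of 5.94 against 5.92), and without 120 d 3 the fitted change of FASN between these ages went from -0.02 to 0.77. For ELOVL1 the means were 2.23 ± 0.363, 1.96 ± 0.419, 1.21 ± 0.186 and 0.889 ± 0.0557 (SD, n = 3), where 60 and 120 d lay within their spread, and 240 and 400 d did not overlap although their difference was not called (adjusted p = 0.596). For FASN they were 43.6 ± 44.2, 12.9 ± 9.53, 12.6 ± 1.19 and 3.81 ± 2.86, and only the highest and the lowest differed in the test. FADS2 had its lowest mean at 240 d, 5.56 ± 1.62, close to 6.21 ± 1.23 at 400 d. ME1 had the order 400, 240, 60 and 120 d, with 13.7 ± 4.05, 11.4 ± 0.221, 6.04 ± 2.83 and 4.84 ± 1.83. The ages accounted for 33.7% of the variance of SCD in log2 CPM, 49% of that of ACACA, 57.8% of FASN, 62.5% of ACLY, 70% of FADS2 and 74.7% of ME1, where the median feature had 48.5%.

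Among 7190 other features with a symbol and a mean of at least 1 FPKM, those most like each gene over the 12 libraries were different for nearly every gene. The 3 closest to FASN were WFDC1, COL5A3 and NPR1, with an r of 0.899 to 0.906. SCD was closest to MFGE8, HS6ST1 and SPHK1 (r of 0.847 to 0.858), ACACA to GLI2, PTPRB and ZNF316 (0.937 to 0.957), and ACLY to HS6ST1, P4HA1 and SNRK (0.911 to 0.947). HS6ST1, a heparan sulphate sulphotransferase, stood in the lists of both SCD and ACLY. ME1 was closest to ABHD17B, FBXO21 and ODR4 (0.929 to 0.954). FADS2 was closest to RGL2, PLIN3 and LZTS2 (0.924 to 0.930), of which PLIN3 coats lipid droplets. ELOVL1 was closest to S100A10, PFKP and EML3 (0.962 to 0.974). These coefficients are the highest of many and carry no test.

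Of 49 other pathway genes tested, in 5 lists, 13 were called in the any-age test, 26.5% against 19.8% of all features. Of these genes, ACACB, HACD1 and PLIN3 were named only through the study's tables of genes selected by their course or change. The share is thus not a neutral comparison, although HACD1 and PLIN3 were not called. Among the other genes of synthesis and substrate supply, 1 of 12 was called, ACACB, the carboxylase form tied to mitochondria and to the control of oxidation. ACACB was at 3.79, 7.27 and 4.84 FPKM at 60 d and at 8.65, 10.3 and 16.8 at 400 d, a rise of 1.21 ± 0.29 on the log2 scale (adjusted p = 0.0130), opposite in sign to ACACA. It was lost without 400 d 3 (adjusted p = 0.0503). PGD, which yields NADPH, was lower at 400 than at 60 d (log2 change -1.17, adjusted p = 0.0191), but not called without 400 d 2 or 400 d 3.

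In the list of elongation and desaturation, 2 of 7 tested genes were called in the any-age test, both desaturases, against 19.8% of all features, and 3 were lower between 60 and 400 d with none higher, against 12.7% and 10.8%. FADS1, which makes the second desaturation of the polyunsaturated chain, was at 3.73, 2.16 and 3.41 FPKM at 60 d and 1.06, 0.433 and 0.841 at 400 d (log2 change -1.96 ± 0.41, adjusted p = 0.00728). FADS3 fell alike (-1.55 ± 0.29, adjusted p = 0.00499). ELOVL5, the elongase of polyunsaturated chains, was the last of the 3, at -1.40 (adjusted p = 0.0432), a call that held in 3 of 12 fits without a library and was -0.73 (adjusted p = 0.222) without 60 d 2 and 400 d 2. ELOVL3 was listed at 0 in all libraries. FADS1, FADS2 and FADS3 all fell between the libraries labelled 60 and 400 d, while FADS6, with 0 to 2 counts per library, was too low to test. The falls of FADS1 and FADS3 held without any single library.

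Of 11 regulators, 2 were called in the any-age test, a share near the 19.8% of all features. SREBF2, a transcription factor of sterol synthesis, was at 13.4, 11.5 and 18.0 FPKM at 60 d and at 6.65, 3.56 and 5.2 at 400 d, without overlap (log2 change -1.45 ± 0.24, adjusted p = 0.00305). INSIG1, which holds SREBF proteins in the endoplasmic reticulum, fell between 120 and 240 d (-1.13, adjusted p = 0.0474) and between 120 and 400 d (-1.35, adjusted p = 0.0165). The first call held in 2 of 12 fits without a library and the second in 10 (not without 400 d 2 or 400 d 3), whereas that of SREBF2 held in all 12. SREBF1, MLXIPL and THRSP, the regulators closest to fatty acid synthesis, and ELOVL6 had no feature matched by symbol and are not analysed here.

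In triglyceride assembly, 3 of 6 genes were called in the any-age test, against 19.8% of all features, in different directions. GPAM, the first acyltransferase of glycerolipid synthesis, rose between 60 and 400 d (1.78 ± 0.39, adjusted p = 0.00922), from a mean of 1.32 ± 0.328 to 4.55 ± 2.61 FPKM. LPIN1, a phosphatidate phosphatase, rose between 120 and 240 d (2.73, adjusted p = 0.0279), though not when any library of 120 d, or 240 d 2 or 240 d 3, was left out. FITM1, a lipid droplet protein of muscle, was lower at 400 than at 60 d (-0.61 ± 0.19, adjusted p = 0.0369), a call lost without 60 d 1, 120 d 1, 240 d 3 or any library of 400 d.

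Fatty acid oxidation had 5 of 13 genes called in the any-age test, against 19.8% of all features, and 5 were higher at 400 than at 60 d and none lower, where 10.8% and 12.7% of all features were. ACSL1, which activates fatty acids, was at 36.8, 46.8 and 44.2 FPKM at 60 d and at 99.6, 215 and 190 at 400 d (1.98 ± 0.30, adjusted p = 0.00198). ACADM, a dehydrogenase of beta-oxidation, rose by 0.98 ± 0.19 (adjusted p = 0.00564), and CPT2 and SLC25A20 of the carnitine shuttle by 0.77 and 0.78 (adjusted p = 0.0411 and 0.0307). The rises of ACSL1 and ACADM held without any single library, while that of CPT2 was lost without 60 d 2, 60 d 3, 120 d 3, 400 d 2 or 400 d 3, and that of SLC25A20 without 60 d 3, 400 d 2 or 400 d 3. The median change was 0.36 in the oxidation list and -1.07 in that of elongation and desaturation.

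**Figure D5:**
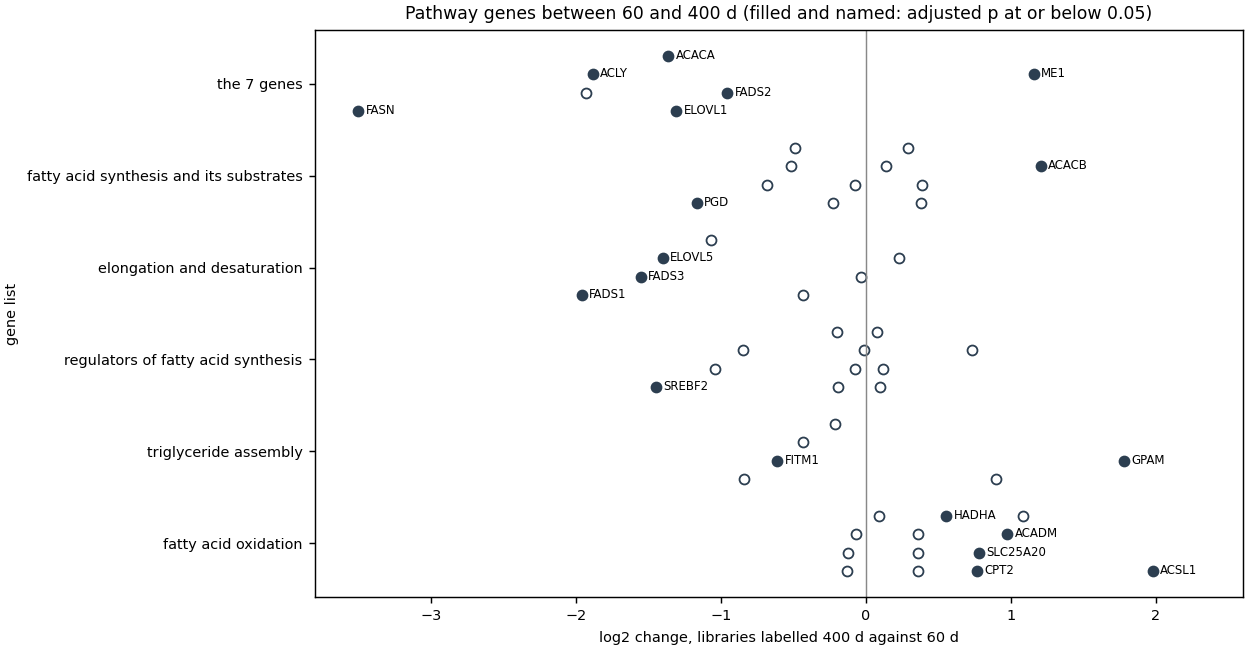
Log2 change between the libraries labelled 60 and 400 d (points) for the 7 genes and for the tested genes of 5 lists of other pathway genes, without 1 gene of the synthesis list. Filled and named points passed an adjusted p of 0.05. In the oxidation list the named genes lie right of 0, and in the list of elongation and desaturation they lie left of it.

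Since fat cells make the same enzymes, their markers are given beside the 7 genes. Of 12 adipocyte markers, 9 had a feature (ADIPOQ, FABP4 and CIDEA had none matched) and 8 passed the count minimum. The any-age test called 1 of these 8, PLIN4, where 19.8% of all features were called. PLIN4 is also expressed in muscle fibres and was higher at 400 than at 60 d (log2 change 1.23 ± 0.25, adjusted p = 0.00641). LEP was at 0 in 2 libraries and RETN in 11. The lowest and highest summed levels of the 9 were 128 and 335 FPKM at 60 d, 168 and 274 at 120 d, 139 and 217 at 240 d, and 85.8 and 192 at 400 d. CFD, a secreted factor of fat cells, made up most of this sum, with a mean level of 197 ± 110 FPKM in the libraries of 60 d and of 87.6 ± 35.4 in those of 400 d (SD, n = 3 each), a change that was not called (edgeR adjusted p = 0.0967). The highest sum was that of 60 d 1, which had the lowest PLIN1 of its age. PLIN1, a defining marker that coats the fat droplet, was at 2.56, 20.8 and 6.07 FPKM at 60 d and 10.6, 1.94 and 17.8 at 400 d. Within its age PLIN1 was highest in 60 d 2 and lowest in 60 d 1 and 400 d 2, as FASN was, but at 400 d it was highest in 400 d 3 and FASN in 400 d 1. At 120 d PLIN1 was at 4.22, 12.0 and 8.48 FPKM, highest in 120 d 2, where FASN was lowest. At 240 d PLIN1 was at 20.1, 11.1 and 14.8 FPKM, the reverse of the order of FASN.

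The mean log2 CPM of the 8 adipocyte markers had a median r of 0.28 with the 7 genes over the libraries, and none of the 7 relations passed (lowest adjusted permutation p = 0.521 for r and 0.886 for rho, over 7 relations). The highest was with FASN, an r of 0.521 and a rho of 0.238 over the libraries and an r of 0.736 within ages (adjusted exact permutation p = 0.409). Without 60 d 2 and 400 d 2 the r of FASN was -0.425.

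Of the markers of other cells, those of endothelium (PECAM1, KDR and TEK, 3 of 5 with a feature) were the closest. They had an r of 0.882 with ACACA (rho = 0.783, adjusted permutation p = 0.0087 and 0.0262, over 28 relations), 0.809 with ACLY, 0.806 with FASN, 0.776 with ELOVL1 and 0.743 with SCD, and all 5 passed for r. For rho, FASN and SCD did not pass (adjusted permutation p = 0.0570 and 0.0928). Within ages the r of these 5 genes was 0.556 for ELOVL1, 0.585 for FASN, 0.606 for ACLY, 0.613 for SCD and 0.774 for ACACA, and none passed. Without 60 d 2 and 400 d 2 the r over the libraries was 0.737 for ELOVL1, 0.700 for ACACA, 0.682 for ACLY, 0.440 for FASN and 0.398 for SCD. PECAM1 and KDR were lower at 400 than at 60 d (log2 change -1.06 and -1.51, adjusted p = 0.0355 and 0.0201), calls lost without 60 d 3, 400 d 2 or 400 d 3, and for PECAM1 also without 60 d 2 or 120 d 1. The summed level of the 3 markers ran from 50.03 to 106 FPKM in the libraries of 60 d and from 28.6 to 47.9 in those of 400 d, with 53.5 to 78.3 and 47.0 to 68.2 for the ages between.

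For r, leukocyte markers passed with ELOVL1 (r = 0.713) and ME1 (r = -0.661), and fibroblast markers with ME1 (-0.704), ELOVL1 (0.672) and FADS2 (0.670), of which none passed within ages. For rho, only ELOVL1 with leukocyte markers passed (adjusted permutation p = 0.0251), and the others had an adjusted permutation p of 0.0570 to 0.0928. The summed level of 6 leukocyte markers was 16.6 to 24.5 FPKM in the libraries of 60 d and 4.81 to 11.4 in those of 400 d, with 16.4 to 59.6 and 9.61 to 18.4 for the ages between. That of 4 fibroblast markers was 623 to 2064, 950 to 1378, 482 to 706 and 208 to 489 in the same order of ages. Both sums were thus lower in all libraries of 400 d than in any of 60 d. At 120 d the mean log2 CPM of the leukocyte markers was 4.28 in 120 d 2, against 2.39 in 120 d 1 and 2.77 in 120 d 3. Of the 6 leukocyte markers, 3 were called in the any-age test, where 19.8% of all features were. These were CD14, ITGAM and CD3E (adjusted p = 0.0449, 0.0476 and 0.0480), of which CD3E was named only through the study's tables of selected genes. The collagens COL1A2 and COL3A1 fell between 60 and 400 d by 2.34 and 2.05 on the log2 scale (adjusted p = 0.0171 and 0.0105), the first not called without 60 d 1, 400 d 2 or 400 d 3, and 60 d 1 held the highest level of both, 413 and 1142 FPKM. Of 3 red blood cell markers tested, HBB and ALAS2 were called in the any-age test, where 19.8% of all features were, with HBB at 1158 FPKM in 60 d 1. The part of these cells in the changes of the 7 genes was not tested.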

How the data were processed

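The authors deposited 1 table per age with 3 libraries each, holding a whole-number count and an FPKM value per gene. Per the study's methods, reads of paired-end runs were mapped to Sscrofa10.2 with TopHat2 and FPKM came from Cufflinks. The submitters' processing notes instead name Bowtie 0.12.2, Cufflinks and the build mm8, and the coordinates of the files are those of the pig. Other versions are not given in the sources used here. The 12 columns of normalized counts that the authors deposited were not used. Whether counting used strand is not stated, so reads of overlapping genes cannot be told apart.

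Symbols came from a table of gene identifiers for 11472 features and from the study's tables for 334, ELOVL1 among them. The study's tables used for this list genes selected by their course or change over these ages. Features named through them are therefore not a neutral sample. The members and lists were chosen with earlier results of these data known. Sequences were not printed.

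Counts were tested in R 4.3.3 with edgeR 4.0.16 by its quasi-likelihood method (TMM, all 12 libraries in 1 fit, age as the only term). The 13314 features tested had 10 or more counts on average at any age, with Benjamini-Hochberg adjustment and calls at 0.05. Each edgeR p sets a change against the spread among libraries of the same age, 1 per pig, estimated over all 4 ages. The pipeline was tested on simulated data. Correlations used log2 CPM with a prior count of 2, in Python 3.11.15 with numpy 2.4.6, pandas 2.3.3 and scipy 1.17.1; figures used matplotlib 3.10.9. Total counts had medians of 10725670, 10387119, 11761414 and 12445846 at 60, 120, 240 and 400 d, and a floor of 3 counts was 0.225 to 0.309 CPM. Named were the 7 genes, the second FASN feature, up to 4 called genes per list by adjusted p, 7 further pathway genes whatever they showed (1 of these is not reported here), and 3 nearest features per gene. PGD, ELOVL5, PECAM1, KDR and PLIN1 were named after their values were seen. Alternatives were DESeq2 1.42.0, its size factors, limma 3.58.1 on log2(FPKM + 1) or log2(FPKM + 0.1), other count minimums, separate fits per pair, a stricter call rule, the ages of the study's tables, Spearman's rho, and leaving out each library.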

Additional observations from a re-analysis of the deposited data

How the results depend on the processing

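No paired analysis was possible because the labels give no replicate numbers and each pig was sampled at a single age. The number of the 7 genes called in the any-age test, 5, was 5 with DESeq2 size factors, with no count filter and with a minimum of 50 counts, and 6 with DESeq2. The ages of the study's tables leave every group of libraries, and so every test, the same by construction, and change only the order of the ages in time. It was 2 with limma on log2(FPKM + 1) and on log2(FPKM + 0.1), 1 (ELOVL1) at a false discovery rate of 0.01 with a log2 change of 1, 2 to 5 without a single library, and 2 (ELOVL1 and ME1) without 60 d 2 and 400 d 2, an alternative chosen after seeing the data. The 11 called changes over the 6 pairs of ages became 7 with limma on log2(FPKM + 0.1), 6 when each pair was fitted separately, 2 under the stricter rule, 5 to 12 without a single library (5 without 400 d 2) and 6 without 60 d 2 and 400 d 2. DESeq2 kept all 11 and added ME1, FADS2 and ELOVL1 between 120 and 240 d (adjusted p = 0.0111, 0.0301 and 0.0389). With no count filter edgeR also kept all 11 and added ME1 in that pair (adjusted p = 0.0492). The 13 other pathway genes called became 22 with DESeq2, 5 under the stricter rule and 8 to 14 without a single library (8 without 240 d 3 or without 400 d 2). The median correlation of the 7 genes over all libraries, 0.46, was 0.34 to 0.59 without a single library and 0.14 without 60 d 2 and 400 d 2. Within ages it was 0.23, with 0.14 to 0.54 without a single library and 0.49 on log2(FPKM + 1). The median correlation with adipocyte markers, 0.28, was -0.05 to 0.40 without a single library and -0.43 without 60 d 2 and 400 d 2. No called change of a named gene between 2 groups of libraries changed its sign under the other alternatives, whereas under the ages of the study's tables the falls from 60 to 400 d would be rises with age. The causes were not tested. The depth limits ACACA, ACLY and ELOVL1 most, with as few as 55, 52 and 61 counts in 400 d 2.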
